A study of Homo sapiens with 8 samples.

Results

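Knockdown of EIF4G2 was compared with a scrambled hairpin in total RNA of immortalized human cardiac fibroblasts, with 2 libraries a group. The genes compared were those with at least 10 counts in 2 or more of these 4 libraries, which took 15605 of the 59385 gene symbols counted. Of the symbols left out, many had no count at all, since 29195 symbols held any count in the 4 libraries. IHCF is a line of cardiac fibroblasts, the cells that build and remodel the heart's collagen scaffold, grown in DMEM with 10% foetal bovine serum, 1% non-essential amino acids and 5 µg/ml insulin. One group carried a scramble shRNA with no target and the other an shRNA against eIF4G2, each delivered by lentivirus. Both groups were then deprived of serum for at least 6 h and given TGF-beta for 24 h, so that the controls had TGF-beta too and the response to it was not measured. Since the labels give 1 hairpin against the gene and no rescue, other effects of that hairpin and the loss of EIF4G2 cannot be told apart. The other 4 of the 8 libraries of the series held polysomal RNA of the same groups.

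EIF4G2, also named DAP5, resembles the carboxy-terminal part of the translation scaffold EIF4G1 and binds eIF4A and eIF3, but it has no binding site for the cap-binding protein eIF4E. It takes part in starting translation on a subset of mRNAs, among them mRNAs with structured leaders or upstream reading frames. Cardiac fibroblasts given TGF-beta turn towards myofibroblasts, which make collagen, crosslink it and contract. The comparison in total RNA asks which mRNA levels differed between knockdown and scramble cells, whether or not ribosome loading differed.

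Total counts per library ran from 18519382 to 23299332. The scramble libraries were closer to each other than the knockdown libraries were, with a Pearson's r of log2 CPM (counts scaled to a common library size) across genes of 0.991 and 0.986. A chi-square of the counts, divided by its degrees of freedom, came to 2.66 between the scramble and 26.4 between the knockdown libraries. Knockdown replicate 1 stood apart from the other 3 libraries: its median transcript length per count was 2938 nt against 3254 to 3332 nt, and ribosomal protein mRNAs took 5.66% of its counts against 4.27 to 4.46%. Separate cultures are not stated for the libraries, which the labels name biological replicates, and the p-values therefore reflect a spread that may be technical. Of 15 fibroblast markers 13 passed the count minimum. The 15 summed to 9588 to 9883 CPM in scramble and 9608 to 10392 CPM in knockdown libraries, most of it COL1A1, FN1 and VIM. THY1 had 6374 to 7538 counts a library, but PDGFRA had 37 to 53 and TCF21 76 to 98. The proteoglycan gene DCN had 3 to 7 counts and FAP 2 to 10. Of 12 cardiomyocyte markers 3 passed, with a sum of 6.05 to 10.6 CPM over the 4 libraries and 0 counts of MYH6, MYH7 and MYL2 in each. Endothelial markers summed to 63.8 to 80.4 CPM and leukocyte markers to 2.75 to 4.70 CPM, with CD163, CD3E and TYROBP at 0 in each library. Markers of mural cells summed to 688 to 717 CPM with the scrambled hairpin and to 544 to 665 CPM with the EIF4G2 hairpin, with MYH11 and ABCC9 at 0. Keratins were plentiful in this line: the 8 epithelial markers summed to 2928 to 2974 CPM in control and 2869.6 to 3220.2 CPM in knockdown cells, nearly all of it KRT8, KRT18 and KRT7, with 0 to 5 counts of CDH1. These marker sums were scaled by library totals alone, unlike the CPM of single genes given below.

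The targeted mRNA was lower in both knockdown libraries. EIF4G2 stood at 1139 and 1129 CPM with the scrambled hairpin and 412 and 471 CPM with the EIF4G2 hairpin, on GRCh38 chromosome 11 from 10797046 to 10808926. The groups did not overlap, and the knockdown mean was 38.9% of the scramble mean, a log2 fold change of −1.36 ± 0.12 (SE; edgeR quasi-likelihood test, Benjamini-Hochberg adjusted p = 0.0344). Among its relatives, EIF4G1 stood at 883 and 885 CPM in scramble against 759 and 864 CPM in knockdown (log2 fold change −0.12 ± 0.11, edgeR adjusted p = 0.636) and EIF4G3 at 133 and 118 CPM in scramble against 84.1 and 114 CPM in knockdown (−0.35 ± 0.15, edgeR adjusted p = 0.37). Of 48 tested genes of cap binding and translation initiation or elongation other than EIF4G2, neither edgeR nor DESeq2 called any, with 3 higher and 1 lower at an unadjusted edgeR p under 0.05, shares no larger than the 7.37% higher and 6.36% lower over all genes tested. At that level the lower one was EIF2S2, the beta subunit of the initiation factor eIF2, at 187 and 184 CPM in scramble against 147 and 116 CPM in knockdown (log2 fold change −0.50 ± 0.13). The higher ones included EIF4EBP1, a repressor of eIF4E (0.40 ± 0.14), and EIF1, which guards start codon choice (0.40 ± 0.14). In log2 CPM minus the scramble mean, knockdown replicates 1 and 2 had 0.58 and 0.19 for EIF4EBP1, 0.57 and 0.21 for EIF1 and −0.58 and −0.14 for EIF4G3, each farther from 0 in replicate 1.

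In the 4 libraries edgeR called 10 genes (0.0641%) at an adjusted p under 0.05, 9 higher (0.0577% of the genes tested) and EIF4G2 alone lower (0.00641%). DESeq2 called 129 genes on the same libraries, among them all 10 of edgeR's: 86 higher (0.551%) and 43 lower (0.276%), with no adjusted p for 2723 genes. At an unadjusted edgeR p under 0.05 stood 1150 genes on the higher side (7.37%) and 993 on the lower (6.36%). Fold changes were centred on 0, with a median log2 value of 0.00 and 50.3% of genes above 0. Large changes were rare among well-expressed genes: of 431 genes with a log2 fold change beyond 1 in either direction, 16 had a mean log2 CPM of at least 3. The median log2 fold change of the DESeq2 calls was 0.71 on the higher and −0.73 on the lower side. Of the 129, 37 belonged to at least 1 of the 31 gene lists drawn up, not all of them described here, and 92 to none. The lists name 920 genes and were chosen with earlier results of these data known, so the 37 are no measure of enrichment. The number of edgeR calls depended on the library left out, with 29 genes called without scramble replicate 1, 20 without scramble replicate 2, 2011 without knockdown replicate 1 and 6021 without knockdown replicate 2. In the last pair of fits the lone knockdown library was assumed to vary like the scramble libraries, which were close to each other. All 10 genes were among the calls without either knockdown library, and 9 of them, all but SLC16A3, without either scramble library.

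**Figure D1:**
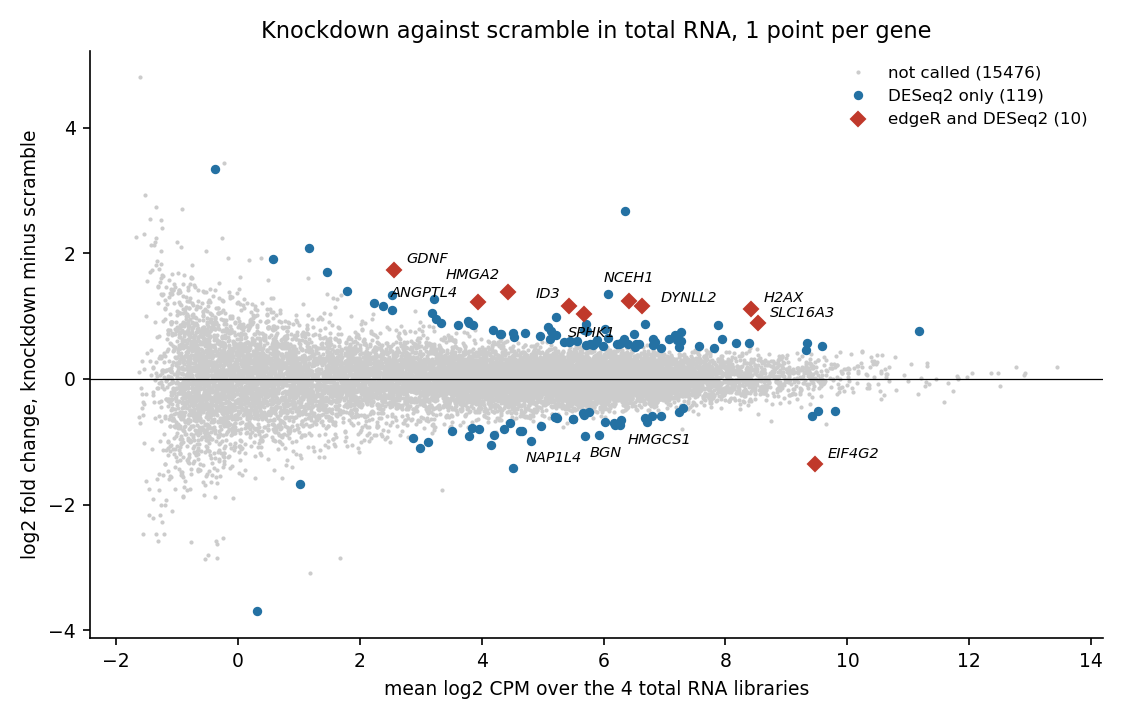
Each point is 1 of the 15605 genes, with its mean log2 CPM over the 4 total RNA libraries on the x axis and its log2 fold change, knockdown minus scramble, on the y axis; red diamonds are the 10 genes called by edgeR and DESeq2, blue points the 119 called by DESeq2 alone. EIF4G2 lies at −1.36 and stands clear of the cloud of well-expressed genes, and the other 9 red points lie between 0.89 and 1.74.

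Among the 9 higher calls 2 encode chromatin proteins. H2AX, the histone variant that is phosphorylated around DNA breaks, stood at scramble levels of 230.2 and 237 CPM and knockdown levels of 536 and 478 CPM. Its log2 fold change was 1.12 ± 0.11 (SE; edgeR adjusted p = 0.0344). HMGA2, an architectural protein of fetal and tumour chromatin, stood at 13.6 and 13.0 CPM in control cells, compared to 31.2 and 38.1 CPM in knockdown cells (log2 fold change 1.38 ± 0.14, edgeR adjusted p = 0.0368). In both genes the lower knockdown library was more than 2 times the higher scramble library. Of 31 tested histones, HMG proteins and their RNA-binding partners, these were the only calls by either tool, and the median log2 fold change was 0.09. Over all genes tested edgeR called 0.0577% higher and DESeq2 0.551%. HMGA1, the paralogue of HMGA2, had −0.06 ± 0.12, and IGF2BP3, an RNA-binding protein of the same fetal programme, −0.70 ± 0.28 (edgeR adjusted p = 0.343). The histone variant H2AZ1 had 0.37 ± 0.14 and no call. The knockdown libraries lay apart in these, with −1.30 and −0.27 for IGF2BP3 and 0.55 and 0.16 for H2AZ1 in log2 CPM of replicates 1 and 2 minus the scramble mean.

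Lipid handling and transport supplied 3 more of the higher calls. NCEH1, which hydrolyses cholesterol esters, stood at 54.0 and 56.9 CPM in scramble libraries against 119.6 and 144 CPM after knockdown (log2 fold change 1.25 ± 0.12, edgeR adjusted p = 0.0344). ANGPTL4, a secreted inhibitor of lipoprotein lipase, stood at 10.7 and 9.19 CPM with the scrambled hairpin and 23.7 and 23.0 CPM with the EIF4G2 hairpin (1.23 ± 0.14, edgeR adjusted p = 0.0464). SLC16A3, the lactate exporter MCT4, stood at scramble levels of 277 and 266 CPM and knockdown levels of 511 and 496 CPM (0.89 ± 0.10, edgeR adjusted p = 0.0464). The groups did not overlap for any of the 3. The SLC16A3 call was lost without scramble replicate 1 (edgeR adjusted p = 0.208) and without scramble replicate 2 (0.342), though its log2 fold change stayed between 0.86 and 0.97 in every setting tried.

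The remaining higher calls encode signalling and motor proteins. SPHK1, the kinase that makes sphingosine 1-phosphate, stood at 35.7 and 35.7 CPM in control cells, compared to 75.7 and 70.9 CPM in knockdown cells (log2 fold change 1.04 ± 0.11, edgeR adjusted p = 0.0368). ID3, an inhibitor of basic helix-loop-helix transcription factors and a classic target of BMP signalling, stood at 28.4 and 29.2 CPM in scramble libraries against 70.0 and 58.7 CPM after knockdown (1.16 ± 0.13, edgeR adjusted p = 0.0464). In both, both knockdown libraries lay above both scramble libraries. GDNF, a secreted ligand of the TGF-beta superfamily that signals through RET, stood at 2.97 and 3.39 CPM with the scrambled hairpin and 9.58 and 11.6 CPM with the EIF4G2 hairpin (1.74 ± 0.20, edgeR adjusted p = 0.0478), with the largest of the 9 higher fold changes. DYNLL2, a light chain of dynein and myosin V, stood at scramble levels of 65.1 and 68.0 CPM and knockdown levels of 156 and 140.5 CPM (1.15 ± 0.10, edgeR adjusted p = 0.0344). The groups did not overlap for any of these 4 genes.

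**Figure D2:**
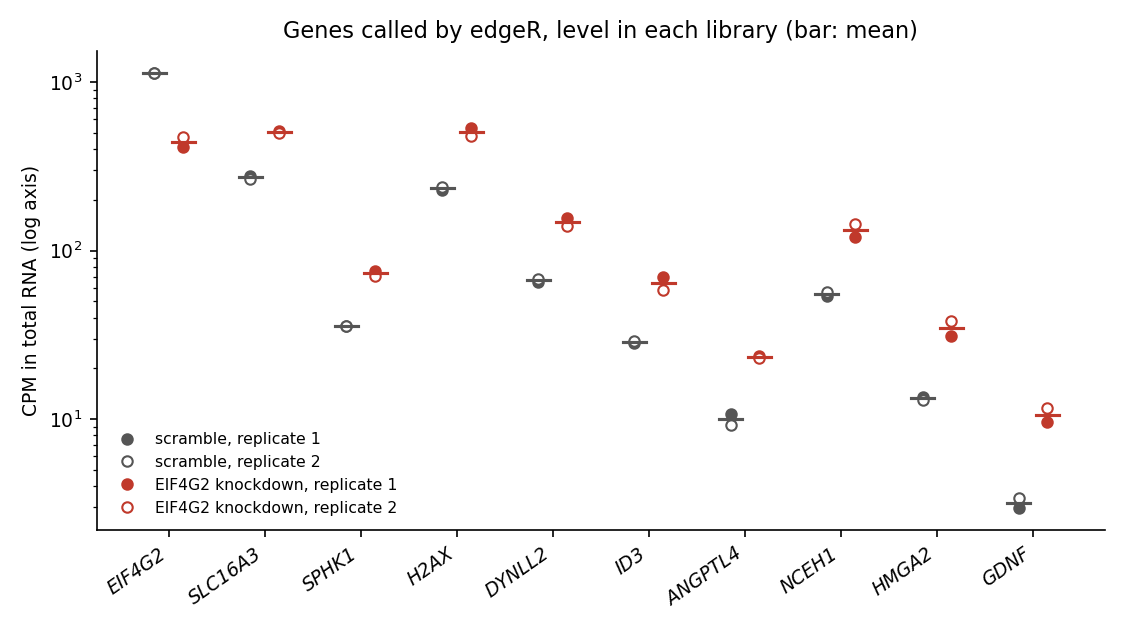
Levels in CPM on a log axis of the 10 genes called by edgeR, 1 point per library (grey scramble, red knockdown; filled replicate 1, open replicate 2) with a bar at the group mean. EIF4G2 is the only one whose knockdown points, 412 and 471 CPM, lie below the scramble points, and no gene's groups overlap.

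Among genes called by DESeq2 alone, with a mean log2 CPM of at least 3, the largest positive log2 fold changes belonged to RN7SL1, HSD17B10, SLC7A11 and DYNLRB1. RN7SL1, the RNA of the signal recognition particle, which has no long polyA tail, stood at 35.3 and 33.3 CPM in control cells, compared to 321 and 118 CPM in knockdown cells. The knockdown libraries lay far apart there, and the log2 fold change of 2.68 ± 0.49 (DESeq2 adjusted p = 0.0126) was 1.78 without knockdown replicate 1. HSD17B10, a mitochondrial dehydrogenase that is also a subunit of mitochondrial RNase P, stood at 38.3 and 47.0 CPM in scramble libraries against 126 and 91.5 CPM after knockdown (1.35 ± 0.17, edgeR adjusted p = 0.0694, DESeq2 adjusted p = 4.51e-10). The dynein light chain DYNLRB1 stood at 6.47 and 6.29 CPM with the scrambled hairpin and 16.5 and 9.91 CPM with the EIF4G2 hairpin, with a log2 fold change of 1.05 ± 0.25 that was 0.63 without knockdown replicate 1 (DESeq2 adjusted p = 0.0262 with all 4 libraries).

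On the lower side, under the same level rule, the largest change was that of NAP1L4, a histone chaperone. It stood at scramble levels of 32.6 and 42.5 CPM and knockdown levels of 12.9 and 15.2 CPM, with a log2 fold change of −1.42 ± 0.17 (edgeR adjusted p = 0.0508, DESeq2 adjusted p = 1.88e-09). Its knockdown libraries lay close to each other and below both scramble libraries. SGMS2, which makes sphingomyelin at the plasma membrane, stood at 26.2 and 24.6 CPM in control cells, compared to 11.3 and 13.3 CPM in knockdown cells (−1.05 ± 0.14, DESeq2 adjusted p = 5.85e-05), and TLR3, the endosomal receptor of double-stranded RNA, at 11.3 and 13.2 CPM in scramble libraries against 5.52 and 6.64 CPM after knockdown (−1.01 ± 0.18, DESeq2 adjusted p = 0.0126). FABP3, the heart type of fatty acid binding protein, stood at 24.8 and 25.5 CPM with the scrambled hairpin and 15.6 and 11.4 CPM with the EIF4G2 hairpin (−0.90 ± 0.17), and EDN2, an endothelin, at scramble levels of 81.1 and 84.2 CPM and knockdown levels of 50.5 and 39.0 CPM (−0.88 ± 0.14, DESeq2 adjusted p = 0.00462 and 5.85e-05). NOTCH3, a receptor typical of mural cells, stood at 35.6 and 31.7 CPM in control cells, compared to 16.4 and 21.7 CPM in knockdown cells (−0.82 ± 0.16, DESeq2 adjusted p = 0.00535). The 5 tested mural markers all had log2 fold changes below 0 (median −0.23), with the other 4 not called, while 50.3% of all genes tested lay above 0. Without knockdown replicate 1, 2 of these markers were above 0 and 3 below (median −0.16). In bulk RNA, fewer cells of a type and less RNA per cell cannot be told apart. LPCAT1, an acyltransferase of phospholipids, rested on 1 scramble library: it stood at 27.6 and 53.4 CPM in scramble libraries against 19.2 and 21.3 CPM after knockdown, and its log2 fold change of −0.99 ± 0.27 was −0.44 without scramble replicate 2. SLC4A8, a bicarbonate transporter (−0.91 ± 0.14), the splicing factor PUF60 (−0.83 ± 0.17) and TMEM170B (−0.82 ± 0.14) complete the 12 lower calls that were largest.

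Genes of cholesterol synthesis lay mostly below their scramble level in knockdown cells. Cholesterol is made from acetyl-CoA by a chain of enzymes whose genes, with those of fatty acid synthesis, are switched on by the SREBP transcription factors when membrane sterol runs low, while INSIG proteins hold SREBPs back when sterol is plentiful. Of the 20 enzymes listed all 20 were tested, 18 had a log2 fold change below 0 and 11 had an unadjusted edgeR p under 0.05, all lower, against 6.36% of all genes tested. In 16 of the 20 both knockdown libraries lay below both scramble libraries (24.2% of all genes tested), and in none did both lie above (24.3%). The median log2 fold change was −0.30, −0.18 in knockdown replicate 1 and −0.35 in knockdown replicate 2. edgeR called none of them, and DESeq2 called 2 lower (0.276% of all genes tested), HMGCS1 among them. HMGCS1, HMG-CoA synthase, stood at 102 and 96.3 CPM with the scrambled hairpin and 56.2 and 63.1 CPM with the EIF4G2 hairpin (log2 fold change −0.73 ± 0.11, edgeR adjusted p = 0.0942, DESeq2 adjusted p = 0.000223). Both knockdown libraries lay below both scramble libraries.

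Further enzymes are given by their place in the pathway. Of the enzymes of isoprenoid synthesis, IDI1 had a log2 fold change of −0.25 ± 0.11, MVK −0.33 ± 0.13, FDPS −0.20 ± 0.10, ACAT2, which makes acetoacetyl-CoA, −0.23 ± 0.10 and MVD −0.14 ± 0.14. Squalene synthase FDFT1 had −0.31 ± 0.10, the epoxidase SQLE −0.30 ± 0.09 and the cyclase LSS, which makes lanosterol, −0.30 ± 0.12. Among enzymes that turn lanosterol into cholesterol, CYP51A1 had −0.66 ± 0.22, MSMO1 −0.45 ± 0.10, DHCR7 −0.35 ± 0.09, TM7SF2 −0.33 ± 0.15, SC5D −0.33 ± 0.12, HSD17B7 −0.17 ± 0.14 and NSDHL −0.04 ± 0.11. These 15 did not pass either test. The 2 enzymes above 0 were EBP (0.26 ± 0.16) and PMVK (0.16 ± 0.15), and both were high in knockdown replicate 1 only, at 0.47 and 0.01 for EBP and 0.35 and −0.05 for PMVK in log2 CPM minus the scramble mean. Other enzymes also depended on 1 knockdown library: on the same scale replicates 1 and 2 had −0.95 and −0.39 (CYP51A1), −0.15 and −0.54 (TM7SF2), −0.18 and −0.49 (MVK) and −0.15 and −0.32 (ACAT2). MVD had 0.04 and −0.35, and NSDHL had 0.05 and −0.14.

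Regulators of sterol level went different ways. INSIG1, itself an SREBP target, stood at 95.0 and 99.9 CPM in control cells, compared to 62.1 and 62.1 CPM in knockdown cells (log2 fold change −0.65 ± 0.10, edgeR adjusted p = 0.099, DESeq2 adjusted p = 0.00146). The lysosomal cholesterol exporter NPC1 had −0.50 ± 0.15 and the ubiquitin ligase MYLIP −0.39 ± 0.13, neither called. NPC1 had −0.71 and −0.31 in knockdown replicates 1 and 2 on the scale of log2 CPM minus the scramble mean. NCEH1, described above, was the only regulator called higher, and NR1H2, the sterol receptor LXR-beta, had 0.46 ± 0.10 (edgeR adjusted p = 0.208). Of the 21 tested, 9 were above and 12 below 0, while 50.3% of all genes tested lay above 0. NCEH1 and INSIG1 were the only calls among them, beside 0.551% of all genes tested called higher by DESeq2 and 0.276% called lower. SREBF1 and SREBF2, which encode the SREBPs, had −0.19 ± 0.09 and −0.16 ± 0.10.

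Fatty acid synthesis genes were also mostly below 0, 17 of 20 tested, 11 of them at an unadjusted edgeR p under 0.05 and 0 higher at that level, against 6.36% lower and 7.37% higher over all genes tested. The median log2 fold change was −0.29, −0.34 in knockdown replicate 1 and −0.19 in knockdown replicate 2. LPIN1, a phosphatidate phosphatase and SREBP target, stood at 80.8 and 83.5 CPM in scramble libraries against 46.3 and 56.0 CPM after knockdown (log2 fold change −0.68 ± 0.12, DESeq2 adjusted p = 0.00309). SCD, the delta-9 desaturase, stood at 842 and 844 CPM with the scrambled hairpin and 519 and 602 CPM with the EIF4G2 hairpin (−0.59 ± 0.12, DESeq2 adjusted p = 0.00263). The groups did not overlap in these genes, and edgeR called neither (adjusted p = 0.141 and 0.171). FASN, the fatty acid synthase, had −0.44 ± 0.14, and the desaturase FADS2 −0.37 ± 0.10. The knockdown libraries lay apart in FASN, at −0.64 and −0.27 in log2 CPM minus the scramble mean, and more so in ACACA, acetyl-CoA carboxylase, at −1.31 and 0.11.

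**Figure D3:**
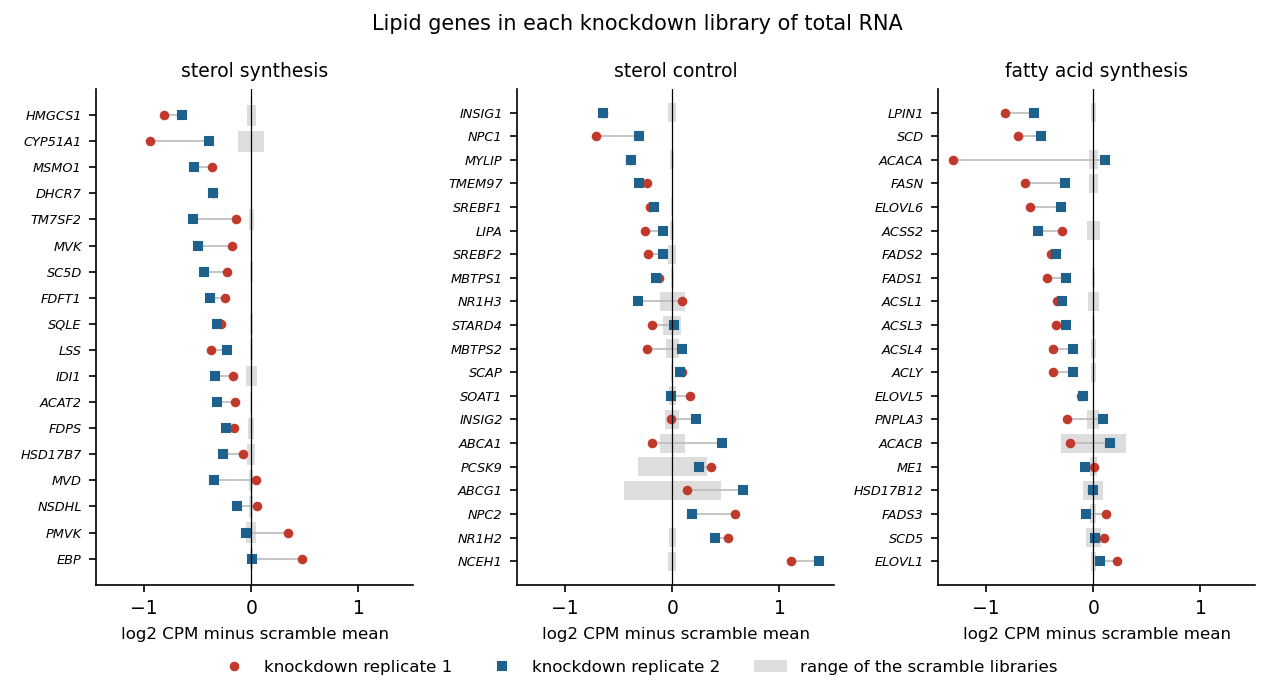
For 18 of the 20 tested genes of sterol synthesis, 20 of the 21 of sterol control and all 20 of fatty acid synthesis, the x axis gives log2 CPM of knockdown replicate 1 (red circle) and replicate 2 (blue square) minus the scramble mean, and the grey bar spans the scramble libraries. In sterol synthesis 16 of the 18 genes plotted have a log2 fold change below 0, with HMGCS1 at −0.73 the lowest, and NCEH1 stands at the far right of its panel at 1.25.

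Among lipid genes that hold the letters described below, the promoters of HMGCS1, INSIG1 and NCEH1 are shown. HMGCS1 and INSIG1 were called lower by DESeq2 and NCEH1 higher. Each window lies within the 250 bases before the gene's RefSeq start on GRCh38.p14, is written 5′ to 3′ on the gene's strand and has in capitals the CCAAT box (CCAAT, or ATTGG on the opposite strand), the site of the factor NF-Y that works beside SREBPs. They are chr5:43313518-43313612 (minus strand) for HMGCS1, chr7:155297663-155297757 (plus strand) for INSIG1 and chr3:172711068-172711156 (minus strand) for NCEH1.
HMGCS1: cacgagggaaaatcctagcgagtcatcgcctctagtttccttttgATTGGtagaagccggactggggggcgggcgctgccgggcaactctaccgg
INSIG1: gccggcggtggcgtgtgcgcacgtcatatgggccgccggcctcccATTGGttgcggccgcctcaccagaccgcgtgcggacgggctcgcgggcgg
NCEH1: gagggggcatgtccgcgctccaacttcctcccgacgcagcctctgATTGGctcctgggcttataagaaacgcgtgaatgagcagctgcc
CCAAT was held on either strand by 34 of the 50 tested lipid genes with a RefSeq promoter (68.0%), against 4471 of all 10899 tested genes with one (41.0%). Since the genes shown were picked among holders of the box, its presence in genes called lower and higher follows from the choice. The sterol element searched, TCACNCCAC on either strand, was found in 2 of the 50 (4.00%; SREBF2 and ACSL1) against 128 of 10899 (1.17%). A match is a description of the letters and not a shown binding site.

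Interferon response genes lay mostly below their scramble level in both knockdown libraries. Interferon binding leads factors such as STAT2 and IRF9 to a promoter element, the ISRE, and so switches on antiviral effectors such as the OAS, IFIT and MX proteins, which many cells also hold at a low level with no virus present. Of 48 genes listed 45 were tested, 37 of these had a log2 fold change below 0, and in 30 both knockdown libraries lay below both scramble libraries (24.2% of all genes tested). At an unadjusted edgeR p under 0.05 stood 24, all lower, against 6.36% of all genes. The median log2 fold change was −0.39, −0.41 in knockdown replicate 1 and −0.35 in knockdown replicate 2. edgeR called none at an adjusted p under 0.05, and DESeq2 called 3 lower (0.276% of all genes tested). MX1, a dynamin-like GTPase that blocks influenza viruses, stood at scramble levels of 55.5 and 56.8 CPM and knockdown levels of 36.6 and 35.5 CPM (log2 fold change −0.64 ± 0.11, DESeq2 adjusted p = 0.00721). IFIT2, which binds foreign RNA, stood at 44.9 and 45.2 CPM in control cells, compared to 29.7 and 29.7 CPM in knockdown cells (−0.60 ± 0.11, DESeq2 adjusted p = 0.0227). The replicates of each group almost coincided in these genes. OAS3, which makes the 2′-5′ oligoadenylate that activates RNase L, stood at 95.4 and 91.4 CPM in scramble libraries against 44.5 and 70.4 CPM after knockdown (−0.70 ± 0.19, DESeq2 adjusted p = 0.0341), and its log2 fold change was −0.41 without knockdown replicate 1 and −1.07 without replicate 2.

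OAS1, which makes the same oligoadenylate, stood at 11.5 and 12.9 CPM with the scrambled hairpin and 7.02 and 7.35 CPM with the EIF4G2 hairpin (log2 fold change −0.76 ± 0.16) and was not called by either tool (edgeR adjusted p = 0.198, DESeq2 adjusted p = 0.102). Of the signal transducers, STAT2 had −0.16 ± 0.10 and IRF9 −0.09 ± 0.27. IRF1 had 0.14 ± 0.12, and the highest value of the list was that of IRF7, at 1.15 ± 0.69 with 0.01 and 1.63 in the knockdown libraries against the scramble mean. Without knockdown replicate 1 the list had 39 members below 0, and without replicate 2 it had 38.

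The promoters of 4 members below 0 are shown as examples of the ISRE, with its core in capitals (GAAA, then any 2 bases, then GAAA, on either strand): OAS3 and IFITM1 with 1 match and DDX60 and IFI27 with 2. The windows are chr12:112938286-112938385 (plus strand) for OAS3, chr11:313955-314039 (plus strand) for IFITM1, chr4:168318786-168318885 (minus strand) for DDX60 and chr14:94110583-94110682 (plus strand) for IFI27, from RefSeq on GRCh38.p14, 5′ to 3′ on the gene's strand.
OAS3: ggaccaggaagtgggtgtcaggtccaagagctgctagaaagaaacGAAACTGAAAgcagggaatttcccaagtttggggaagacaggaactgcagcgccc
IFITM1: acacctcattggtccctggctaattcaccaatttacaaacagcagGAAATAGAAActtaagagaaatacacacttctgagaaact
DDX60: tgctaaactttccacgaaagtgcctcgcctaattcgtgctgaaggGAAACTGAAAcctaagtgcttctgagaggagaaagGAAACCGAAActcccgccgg
IFI27: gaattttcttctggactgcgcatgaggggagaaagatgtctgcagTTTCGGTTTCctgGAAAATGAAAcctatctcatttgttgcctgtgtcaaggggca
The letters were found in 23 of the 35 tested members in the promoter table (65.7%), against 358 of 10899 tested genes (3.29%). DDX60, a helicase that aids RNA sensing, had a log2 fold change of −0.66 ± 0.15, IFI27, a mitochondrial interferon-induced protein, −0.73 ± 0.17, and IFITM1, which blocks virus entry, −0.49 ± 0.11. None of these 3 was called by either tool. Other members with the same letters had values above 0, ISG15, a ubiquitin-like modifier (0.15 ± 0.15), and IFITM3, a relative of IFITM1 (0.12 ± 0.16), among them.

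Target genes of the integrated stress response lay mostly above their scramble level. In this response, kinases phosphorylate the initiation factor eIF2, general translation falls, and the factor ATF4 is made and turns on amino acid synthesis, amino acid import and, later, CHOP. Of 41 genes listed 40 were tested, 30 had a log2 fold change above 0 and 23 had both knockdown libraries above both scramble libraries (24.3% of all genes). At an unadjusted edgeR p under 0.05 stood 16 on the higher side (7.37% of all genes tested) and 1, the tRNA synthetase gene EPRS1, on the lower (6.36%). The median log2 fold change was 0.23, 0.31 in knockdown replicate 1 and 0.21 in knockdown replicate 2. edgeR called none, and DESeq2 called the transporters SLC7A11 and SLC6A9 higher (0.551% of all genes tested). SLC7A11, the cystine importer, stood at scramble levels of 6.33 and 5.54 CPM and knockdown levels of 14.0 and 14.8 CPM (log2 fold change 1.28 ± 0.16, edgeR adjusted p = 0.0654, DESeq2 adjusted p = 6.68e-05). SLC6A9, a glycine transporter, stood at 8.86 and 9.24 CPM in control cells, compared to 15.8 and 17.1 CPM in knockdown cells (0.86 ± 0.14, DESeq2 adjusted p = 0.0148). JDP2, a repressor of the AP-1 family, stood at 15.3 and 16.0 CPM in scramble libraries against 26.0 and 23.0 CPM after knockdown (0.65 ± 0.13, edgeR adjusted p = 0.174). The groups did not overlap for any of these 3.

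ATF4 had a log2 fold change of 0.47 ± 0.12, its partner CEBPB 0.51 ± 0.12 and the serine pathway enzyme PHGDH 0.46 ± 0.10, while DDIT3, which encodes CHOP, had −0.21 ± 0.20, ASNS, asparagine synthetase, 0.08 ± 0.67 and the phosphatase subunit PPP1R15A 0.10 ± 0.11. None of these 6 was called. Of 25 tested genes of the unfolded protein response, the sister pathway of the endoplasmic reticulum, 14 were above 0 (50.3% of all genes tested). DESeq2 called 1 of the 25 lower (0.276% of all genes tested), the chaperone CANX. It stood at 1062 and 1064 CPM with the scrambled hairpin and 709 and 783 CPM with the EIF4G2 hairpin (−0.51 ± 0.11, DESeq2 adjusted p = 0.0104). The sensor kinase ERN1 had −0.48 ± 0.17 and the chaperone partner SDF2L1 0.37 ± 0.14, neither called. SDF2L1 was farther from scramble in knockdown replicate 1 than in replicate 2 (0.55 and 0.16 in log2 CPM minus the scramble mean), and DDIT3 less far (−0.05 and −0.35).

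CHAC1, a glutathione-degrading enzyme that ATF4 turns on, had a log2 fold change of 0.90 ± 0.20 and no call, and its promoter and that of ATF3, another target, are shown because both hold the C/EBP-ATF composite letters TGATGNAA, in capitals, on either strand. The windows are chr15:40953221-40953314 (plus strand) for CHAC1 and chr1:212565171-212565268 (plus strand) for ATF3, from the same table and written in the same way.
CHAC1: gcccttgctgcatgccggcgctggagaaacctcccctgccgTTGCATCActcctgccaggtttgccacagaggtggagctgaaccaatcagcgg
ATF3: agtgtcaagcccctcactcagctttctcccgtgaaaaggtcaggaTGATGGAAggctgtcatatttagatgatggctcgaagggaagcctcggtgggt
These letters stood in 8 of 35 tested members with a promoter (22.9%), against 259 of 10899 tested genes (2.38%). ATF3 had a log2 fold change of 0.21 ± 0.17.

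**Figure D4:**
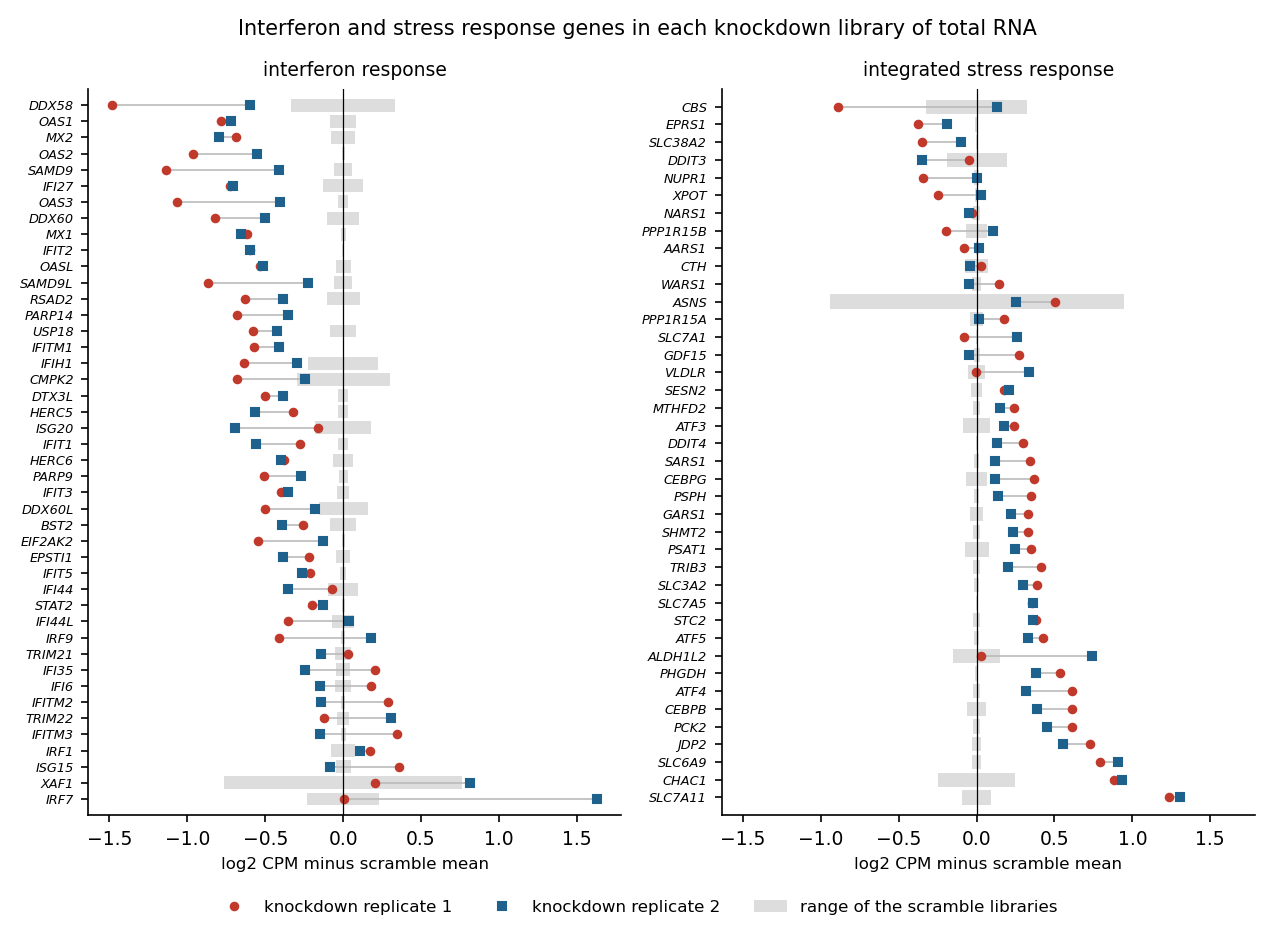
Log2 CPM of each knockdown library minus the scramble mean for 44 of the 45 tested interferon response genes and the 40 tested genes of the integrated stress response, with red circles for replicate 1, blue squares for replicate 2 and grey bars for the range of the scramble libraries. Both knockdown points lie left of the bar for most interferon genes, with MX1 at −0.64, and right of it for 23 stress genes, with SLC7A11 the highest at 1.28.

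BMP and TGF-beta signalling genes held a few high members over a median near 0. Both families of ligand bind paired receptor kinases that phosphorylate SMAD proteins, with ID genes among the targets of BMP and PMEPA1 among those of TGF-beta. Of 29 tested BMP and ID genes 17 were above 0 (median log2 fold change 0.08), 9 stood higher and 1 lower at an unadjusted edgeR p under 0.05 (7.37% higher and 6.36% lower over all genes tested), and ID3 and NOG were called (DESeq2 called 0.551% of all genes higher). NOG, noggin, which binds and blocks BMP ligands, stood at scramble levels of 64.4 and 63.0 CPM and knockdown levels of 97.5 and 91.3 CPM (log2 fold change 0.57 ± 0.10, DESeq2 adjusted p = 0.0131). GDF6, a BMP-like ligand, stood at 10.9 and 9.08 CPM in control cells, compared to 15.9 and 17.9 CPM in knockdown cells (0.75 ± 0.16, edgeR adjusted p = 0.19), and the groups did not overlap. Among the ID family ID1 had 0.83 ± 0.22, ID2 −0.10 ± 0.18 and ID4 0.10 ± 0.26, none called, and the BMP antagonist GREM1 had 1.19 ± 0.32 (edgeR adjusted p = 0.25). ID1 stood at 1.09 and 0.50 in log2 CPM of knockdown replicates 1 and 2 minus the scramble mean.

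Of 29 tested TGF-beta ligands, receptors, SMADs and targets, 20 were above 0 (50.3% of all genes tested), 7 stood higher (7.37%) and none lower (6.36%) at an unadjusted edgeR p under 0.05, and DESeq2 called 2 higher (0.551%), THBS1 among them. THBS1, thrombospondin 1, a matricellular protein that can free latent TGF-beta, stood at 1825 and 1717 CPM in scramble libraries against 2706 and 3309 CPM after knockdown (log2 fold change 0.76 ± 0.13, edgeR adjusted p = 0.14, DESeq2 adjusted p = 3.23e-05). Both knockdown libraries lay above both scramble libraries. PMEPA1, a feedback inhibitor, had 0.50 ± 0.13 and no call. Of ligands, receptors and SMADs, TGFB1 had 0.10 ± 0.10, TGFBR1 0.01 ± 0.11, TGFBR2 0.05 ± 0.12 and SMAD3 −0.09 ± 0.10, with CCN2, a standard TGF-beta target, at 0.02 ± 0.10.

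Fibrillar and associated matrix genes went both ways. Of 40 genes listed 38 were tested, 17 above and 21 below 0 (median log2 fold change −0.05, −0.12 in knockdown replicate 1 and 0.09 in knockdown replicate 2), and without knockdown replicate 1 there were 27 above and 11 below. COL1A1, a chain of type I collagen, was found at scramble levels of 5547 and 5427 CPM and knockdown levels of 5695 and 6002 CPM (log2 fold change 0.09 ± 0.12), COL1A2 had 0.11 ± 0.10, COL3A1 0.03 ± 0.10 and fibronectin, FN1, −0.33 ± 0.18, none called. COL8A1, a short-chain collagen, stood at 541 and 530.0 CPM in control cells, compared to 692 and 897 CPM in knockdown cells (0.57 ± 0.14, DESeq2 adjusted p = 0.0207), with a log2 fold change of 0.37 without knockdown replicate 2. FBLN1, fibulin 1, which binds fibronectin and elastic fibres, stood at 26.7 and 27.4 CPM in scramble libraries against 15.6 and 15.5 CPM after knockdown (−0.80 ± 0.12, edgeR adjusted p = 0.0942, DESeq2 adjusted p = 0.00369). These 2 were the matrix calls, 1 in each direction (DESeq2 called 0.551% of all genes tested higher and 0.276% lower). MFAP2, a microfibril protein, had 0.46 ± 0.11 and no call. FN1 stood at −0.62 and −0.08 in log2 CPM of knockdown replicates 1 and 2 minus the scramble mean.

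Small leucine-rich proteoglycans bind collagen and set fibril width. Of 12 listed 5 were tested, and DESeq2 called 1 lower (0.276% of all genes tested) and 1 higher (0.551%). BGN, biglycan, stood at 68.9 and 73.4 CPM with the scrambled hairpin and 39.9 and 35.8 CPM with the EIF4G2 hairpin (log2 fold change −0.91 ± 0.11, edgeR adjusted p = 0.0654, DESeq2 adjusted p = 2.60e-06), and its edgeR adjusted p was 0.0365 without scramble replicate 1 and 0.136 without scramble replicate 2. LUM, lumican, went the other way at a low level, scramble levels of 3.40 and 2.69 CPM and knockdown levels of 8.04 and 6.12 CPM (1.21 ± 0.24, DESeq2 adjusted p = 0.0296). PODN, podocan, had −0.76 ± 0.33 and no call.

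Enzymes that fold, trim and crosslink collagen had 17 of 22 tested members above 0 (50.3% of all genes tested) with a median log2 fold change of 0.10. At an unadjusted edgeR p under 0.05 they had 4 higher and 1 lower (7.37% and 6.36% of all genes tested). DESeq2 called 1 of them, P3H2, higher (0.551% of all genes tested). P3H2, a prolyl 3-hydroxylase, stood at 35.4 and 35.1 CPM in control cells, compared to 51.2 and 55.7 CPM in knockdown cells (log2 fold change 0.60 ± 0.11, DESeq2 adjusted p = 0.0203), and its groups did not overlap. The lysyl hydroxylase PLOD3 had 0.34 ± 0.10 and the hydroxylase P3H3 0.26 ± 0.10, both without a call. Contractile genes of the myofibroblast had 16 of 35 tested members above 0 and a median of −0.00, and neither tool called any, with 8 higher and 4 lower at an unadjusted edgeR p under 0.05 (7.37% higher and 6.36% lower over all genes tested). ACTA2, smooth muscle actin, stood at 6.56 and 8.17 CPM in scramble libraries against 9.14 and 6.74 CPM after knockdown (0.11 ± 0.21), the tropomyosin TPM1 at 587 and 592 CPM with the scrambled hairpin and 791 and 769.8 CPM with the EIF4G2 hairpin (0.40 ± 0.10, edgeR adjusted p = 0.236) and the actin-binding PDLIM7 had 0.41 ± 0.11. LMOD1, a nucleator of actin in smooth muscle, was listed at scramble levels of 2.92 and 2.63 CPM and knockdown levels of 1.19 and 1.23 CPM (−1.19 ± 0.29, edgeR adjusted p = 0.222).

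Secreted and surface signalling genes supplied scattered calls, beside 0.551% of all genes tested called higher by DESeq2 and 0.276% called lower. Among 36 tested genes of hypoxia, glycolysis and vessel growth, ANGPTL4 and VEGFA were called. VEGFA, the vascular endothelial growth factor, stood at 73.9 and 78.0 CPM in control cells, compared to 128 and 151 CPM in knockdown cells (log2 fold change 0.88 ± 0.12, edgeR adjusted p = 0.0748, DESeq2 adjusted p = 2.57e-06). Of the glycolytic and hypoxia genes, LDHA had 0.09 ± 0.12, PGK1 0.11 ± 0.11 and ADM, adrenomedullin, 0.21 ± 0.24, none called. SEMA7A, a membrane-anchored semaphorin, stood at 40.5 and 37.1 CPM in scramble libraries against 64.0 and 78.0 CPM after knockdown (0.87 ± 0.13, DESeq2 adjusted p = 6.44e-05) and was the only call among 26 tested cytokine and receptor genes. TNFRSF11B, osteoprotegerin, had 0.73 ± 0.18 and the TWEAK receptor TNFRSF12A 0.38 ± 0.11. Of 32 tested genes of ERK output and early response, SPHK1, FOSL1 and HBEGF were called higher. FOSL1, an AP-1 subunit, stood at 89.0 and 96.5 CPM with the scrambled hairpin and 139.6 and 130.1 CPM with the EIF4G2 hairpin (0.54 ± 0.10, DESeq2 adjusted p = 0.0184), and HBEGF, a ligand of the EGF receptor, at scramble levels of 39.2 and 37.5 CPM and knockdown levels of 62.8 and 53.1 CPM (0.60 ± 0.12, DESeq2 adjusted p = 0.0308). Feedback inhibitors of the same pathway ranged from −0.20 for SPRED2 to 0.32 for DUSP4, and the early gene EGR1 had −0.26 ± 0.12, none called.

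WNT and Hippo genes (38 tested, median log2 fold change 0.05) held 3 DESeq2 calls, all higher. Over all genes tested DESeq2 called 0.551% higher and 0.276% lower. FZD7, a WNT receptor, stood at 29.1 and 23.5 CPM in control cells, compared to 49.0 and 55.7 CPM in knockdown cells (log2 fold change 0.99 ± 0.14, DESeq2 adjusted p = 1.43e-05), and its paralogue FZD2 at 72.1 and 67.0 CPM in scramble libraries against 104 and 101 CPM after knockdown (0.56 ± 0.10, DESeq2 adjusted p = 0.0137). NF2, merlin, which switches Hippo signalling on, stood at 122 and 118 CPM with the scrambled hairpin and 213 and 189 CPM with the EIF4G2 hairpin (0.74 ± 0.10, edgeR adjusted p = 0.0855, DESeq2 adjusted p = 5.21e-05). Other Frizzled genes ranged from −0.08 for FZD4 to 0.42 for FZD8, and the effector YAP1 had 0.02 ± 0.14. In sphingolipid metabolism (19 tested), SPHK1 was called higher and SGMS2 lower, SPHK2, the other sphingosine kinase, had 0.51 ± 0.11 (edgeR adjusted p = 0.208), and SGPL1, the lyase that destroys sphingosine 1-phosphate, had 0.18 ± 0.10.

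Beside the H2AX change, genes of DNA damage and p53 held 1 call in each direction among 35 tested (median log2 fold change −0.01). DESeq2 called 0.551% of all genes tested higher and 0.276% lower. BAX, which opens the mitochondrial membrane in apoptosis, stood at scramble levels of 123 and 129.5 CPM and knockdown levels of 192 and 167 CPM (log2 fold change 0.51 ± 0.11, DESeq2 adjusted p = 0.039). PMAIP1, NOXA, another p53 target of the same family, stood at 187 and 183 CPM in control cells, compared to 137 and 129.9 CPM in knockdown cells (−0.47 ± 0.10, DESeq2 adjusted p = 0.0405). GADD45A, a growth arrest gene, had 0.33 ± 0.11 and no call. CDKN1A, the p53 target p21, had 0.05 ± 0.10 and MDM2 0.25 ± 0.10, neither called. Of 50 tested cell cycle genes none was called by either tool, with 2 higher and 8 lower at an unadjusted edgeR p under 0.05 (7.37% higher and 6.36% lower over all genes tested). Among the 8 lower ones MKI67, which encodes the proliferation antigen Ki-67, stood at 468 and 441 CPM in scramble libraries against 253 and 362 CPM after knockdown (−0.57 ± 0.17, edgeR adjusted p = 0.281), −0.33 without knockdown replicate 1, and the checkpoint kinases TTK and BUB1 had −0.38 ± 0.10 and −0.35 ± 0.10.

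Values of ribosomal protein and respiratory chain genes rested on 1 knockdown library. Of 77 tested cytosolic ribosomal protein genes 76 had a log2 fold change above 0, with a median of 0.23, but the median against the scramble mean was 0.44 in knockdown replicate 1 and −0.04 in knockdown replicate 2. Without knockdown replicate 1, 26 were above and 51 below 0, with a median of −0.04. The same held for 74 tested nuclear-encoded subunits of oxidative phosphorylation, whose median of 0.20 became −0.06 without that library, with 30 above and 44 below 0. Neither tool called any member of these lists, and at an unadjusted edgeR p under 0.05 there were 5 and 11, all higher (7.37% of all genes tested). Among ribosomal proteins the smallest p belonged to RPS15A (0.29 ± 0.11), RPLP1 (0.43 ± 0.16) and RPL22 (0.30 ± 0.12), and among respiratory subunits to COX6A1 (0.53 ± 0.13), COX8A (0.42 ± 0.11) and NDUFB8 (0.69 ± 0.19). Knockdown replicate 1 was also the library with the lowest median transcript length per count, and with the trend on transcript length removed the medians were 0.07 and 0.09. Mitochondrially encoded genes, 13 tested, had a median of −0.03 and no call. MT-ND4L stood farthest from 0, at −0.72 ± 0.27, with MT-ND1 at −0.20 ± 0.11 and MT-ND6 at 0.21 ± 0.12. Knockdown replicates 1 and 2 differed in MT-ND4L, with −1.27 and −0.31 in log2 CPM minus the scramble mean, and in MT-ND6, with 0.33 and 0.08.

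**Figure D5:**
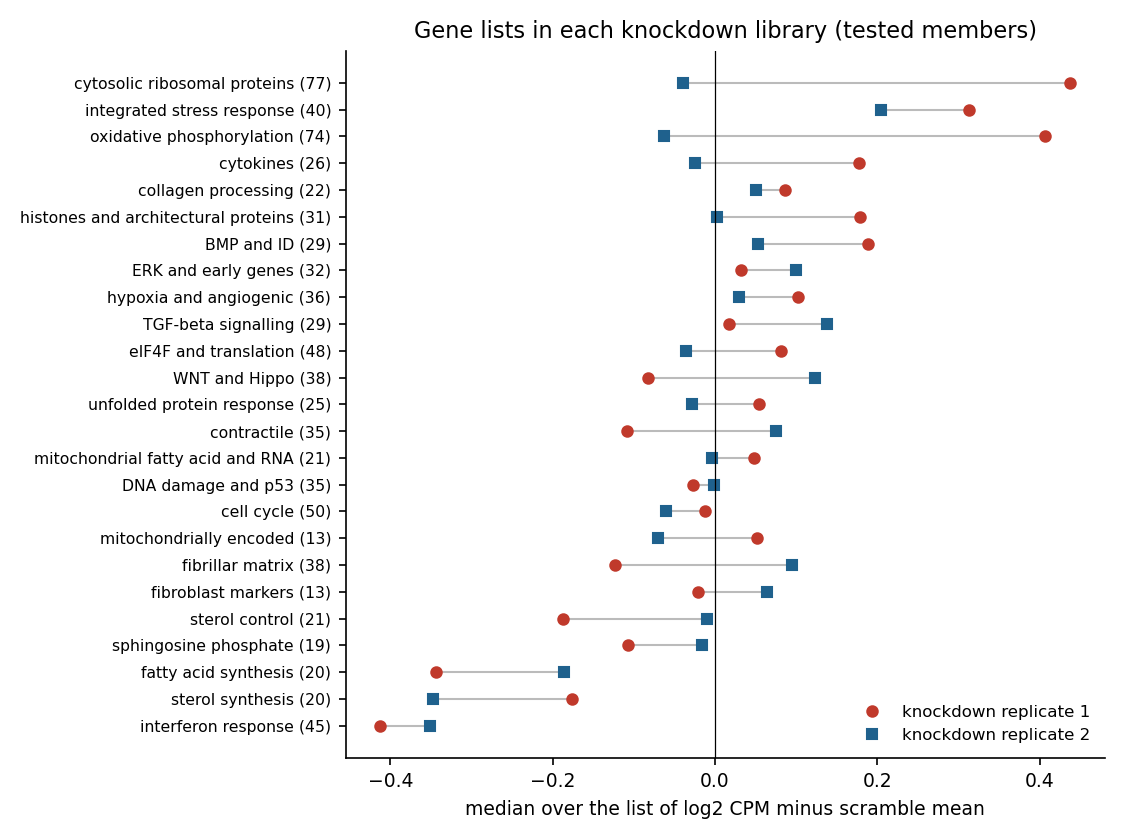
For each gene list with at least 10 tested members (number in brackets), the x axis gives the median over the list of log2 CPM minus the scramble mean, for knockdown replicate 1 (red circle) and replicate 2 (blue square). Interferon response, sterol synthesis and fatty acid synthesis lie below 0 and the integrated stress response above 0 in both libraries, while ribosomal proteins stand at 0.44 and −0.04.

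The effect in total RNA was set beside the effect in the polysomal libraries, where the mRNAs loaded with several ribosomes were sequenced. The difference of the effects was tested as the interaction of hairpin and fraction in all 8 libraries. With edgeR 0 of 15605 genes were called, 984 (6.31%) had an unadjusted p under 0.05, and 4 (0.0256%) were called by DESeq2, namely CDIP1, EME2, OSBPL5 and SPPL2B. None of these 4 was called in total RNA. Of the genes DESeq2 called in total RNA, 71 of the 86 higher were above 0 in polysomal RNA and 34 of the 43 lower were below 0, with median polysomal log2 fold changes of 0.46 and −0.38. Over all genes tested the polysomal median was −0.01. The called genes were picked by their values in total RNA, so their sizes in total and polysomal RNA are not on an equal footing. In the pairs of values given here and for STC1 below, the total value is from the fit of the 4 total RNA libraries. The polysomal value and the difference are from a fit of all 8 libraries, so the pairs do not give the differences exactly. HMGA2 had 1.38 in total and 1.28 in polysomal RNA, and HMGCS1 −0.73 and −0.68. Others had smaller values in polysomal RNA. DYNLL2 had 1.15 and 0.23 (difference −0.94 ± 0.23, edgeR adjusted p = 0.774), VEGFA 0.88 and 0.07 (−0.83 ± 0.24), and THBS1 0.76 and −0.17 (−0.95 ± 0.29, both with the same adjusted p). NAP1L4 had −1.42 in total and 0.77 in polysomal RNA (difference 2.17 ± 0.53, edgeR adjusted p = 0.774). Its polysomal levels were 6.61 and 8.20 CPM in scramble against 18.5 and 6.70 CPM in knockdown libraries. Knockdown replicate 2 thus lay within the scramble range there. These single differences did not pass the test, and whether total and polysomal RNA were taken from the same cultures is not stated in the labels.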

How the data were processed

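RNA of immortalized human cardiac fibroblasts was sequenced as polyA-enriched, paired-end libraries, per the labels' protocols and design text. The authors deposited counts per gene symbol as whole numbers, without normalization. Per the submitters' processing notes, the build is GRCh38 and the tools, named with no role or order, are HISAT2 2.1.0, featureCounts, Subread 2.0.1, R 4.1.2, DESeq2, Trimmomatic 0.36 and bcl2fastq 2.19.0. The annotation, strand setting and handling of multiply mapped reads are not given in the sources used here, which leaves ribosomal protein and histone genes, with their near-identical copies, and overlapping or antisense genes uncertain.

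The labels gave the groups and replicate numbers, with 2 libraries a group analysed here where the design text speaks of triplicates. Counts of the 4 total RNA libraries were scaled by their totals and TMM and fitted with edgeR 4.0.16 in R 4.3.3 (robust quasi-likelihood test, group term only, Benjamini-Hochberg adjustment over all 15605 genes, threshold 0.05). Standard errors are log2 fold changes over the root of the F statistic. For log2 CPM the prior count was 2. DESeq2 1.42.0 and other scalings, filters and fits were alternatives. The interaction of hairpin and fraction was fitted on all 8 libraries.

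Named genes were EIF4G2, H2AX, HMGA2, BGN and HMGCS1, the edgeR calls, the 12 largest DESeq2 calls in each direction whose groups do not overlap and whose mean log2 CPM is at least 3 (some given by value only), and from 31 gene lists (920 genes) the called members and the 3 of smallest p where the text describes a list (marker lists are given as sums), with sterol synthesis. Some genes that the rule names are not reported here, though counts and medians of lists include them. Further members are given for their place in a pathway and were picked after their values were seen. The members and lists were chosen with earlier results of these data known. Promoters came from RefSeq on GRCh38.p14, which held 10899 of the tested genes.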

Additional observations from a re-analysis of the deposited data

How the results depend on the processing

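The main counts were 9 genes higher and 1 lower. They were 9 and 2 with DESeq2's size factors in edgeR or without robust dispersions, 2 and 1 with library totals alone (DYNLL2, EIF4G2 and H2AX), 4 and 1 in a fit of all 8 libraries, 311 and 256 of 29195 genes without the count minimum, 86 and 43 with DESeq2, and 147 and 74 with the trend on transcript length removed. With the replicate number as a block they were 120 and 144. The numbers were not shown to pair the samples, since the deviations of same-numbered scramble and knockdown libraries correlated at −0.09 over all tested genes and −0.27 over genes with a mean log2 CPM of at least 3. A block with the numbers crossed, chosen after seeing the data, gave 357 and 449. Without 1 library the counts ran from 11 to 2996 higher and from 9 to 3025 lower. The cause of these differences was not tested, apart from the assumption on the lone knockdown library. EIF4G2 kept its call in every setting, with log2 fold changes from −1.46 to −1.27 and an edgeR adjusted p up to 0.049. The 0 interaction calls became 64 without the count minimum, 4 with DESeq2, and 0 to 2 without 1 library (COX6A1 and TRPM4 without knockdown polysome replicate 2).

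Some named genes and cell type markers, none of them called with all 4 libraries, changed sign: without 1 library PMVK ran from −0.0544 to 0.35, MVD from −0.35 to 0.0423, NSDHL from −0.14 to 0.0504, TTN from −0.88 to 0.0626, NPPB from −0.0110 to 0.62, NPPA from −0.19 to 0.23 (−0.13 with the length trend removed) and CD14 from −0.75 to 0.0570. edgeR called PMVK higher and TTN lower without knockdown replicate 2, and MVD lower without knockdown replicate 1, in fits with a lone knockdown library. With 2 libraries a group and 2 residual degrees of freedom, a gene below the threshold is not shown to be the same in both groups. Low counts, as for DCN, LMOD1 or H19, limit what can be said of those genes.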

Other observations

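The genes below were picked after their values were seen. H19, an imprinted long non-coding RNA on chromosome 11, had 52 and 111 counts with the scrambled hairpin against 10 and 4 with the EIF4G2 hairpin (log2 fold change −3.70 ± 0.58, edgeR adjusted p = 0.109, DESeq2 adjusted p = 2.10e-06). NAP1L4, also called lower by DESeq2, lies on the same arm, with starts at 1995176 for H19 and 2944437 for NAP1L4 on GRCh38. Of the genes between them, CD81, a tetraspanin, stood at 252 and 271 CPM in scramble against 359 and 278 CPM in knockdown, and TSSC4, a splicing factor, at 58.7 and 54.2 CPM in scramble against 87.2 and 67.1 CPM in knockdown. KCNQ1OT1, the antisense RNA of the imprinted cluster, had 166 and 122 counts with the scrambled hairpin against 111 and 170 with the EIF4G2 hairpin, and reads of an antisense gene are uncertain here.

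HAS2, the main hyaluronan synthase of fibroblasts, was called higher by DESeq2 at 1.20 and 0.860 CPM with the scrambled hairpin and 4.42 and 4.36 CPM with the EIF4G2 hairpin (log2 fold change 2.08 ± 0.28, DESeq2 adjusted p = 0.000875). Proteases of clotting and matrix turnover and their inhibitors held calls in both directions. Tissue factor, F3, stood at scramble levels of 18.1 and 17.4 CPM and knockdown levels of 30.6 and 28.2 CPM (DESeq2 adjusted p = 0.0123), SERPINE2, protease nexin 1, at 119.8 and 119 CPM in control cells, compared to 191 and 174 CPM in knockdown cells (DESeq2 adjusted p = 0.00238) and MMP2, gelatinase A, at 284 and 267 CPM in scramble libraries against 393 and 421 CPM after knockdown (DESeq2 adjusted p = 0.00377). PLAT, the tissue plasminogen activator, was called lower at 154 and 148 CPM with the scrambled hairpin and 95.7 and 105 CPM with the EIF4G2 hairpin (DESeq2 adjusted p = 0.00377), as was TIMP3, an inhibitor of matrix proteases, at scramble levels of 861 and 887 CPM and knockdown levels of 607 and 624 CPM (DESeq2 adjusted p = 0.00826). The groups did not overlap for any of these 6 genes.

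STC1, a secreted hormone, had a log2 fold change of 0.58 in total and 2.02 in polysomal RNA, with an interaction of 1.42 ± 0.30 (edgeR adjusted p = 0.774).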
